A study of Prunus persica with 24 samples.

Results

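The 91 genes described here were lastingly lower in peach flesh kept at 35 °C than in flesh kept at 25 °C. They were chosen by the deposited expression values themselves: FPKM, which scales fragment counts by transcript length and library size, of rows with one identifier were summed and put on the scale of log2(FPKM + 1), and a gene was taken when its value at 35 °C minus that at 25 °C was -1 or lower on each of days 2, 3, 5, 6 and 7. Of 26873 identifiers, 106 met this threshold. From these, 15 were left out because between days 1 and 2 they were at least 1 higher at 25 °C and at least 1 lower at 35 °C on the same scale. Among the 15 was Prupe.4G261900, which the rule also names as left out. The second identifier left out by name, Prupe.4G262200, was not among the 106. The difference on days 2 to 7 is therefore what defined the genes, and its values are given as a description without a test.

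The study sequenced RNA of Prunus persica fruit flesh after harvest. All fruit had been held at 5 °C for 2 days and were then divided at random into storage at 35 °C and storage at 25 °C. Flesh was sampled at both temperatures on days 1, 2, 3, 5, 6 and 7, which makes 12 groups of 2 libraries each. Every group stands as 1 FPKM value per gene in the deposited tables, so no spread between fruit or libraries can be given, and the labels name no cultivar, maturity stage or number of fruit. The 35 °C and the 25 °C values lie in separate tables, so that a difference in how the tables were scaled and the temperature cannot be told apart.

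Peach is a climacteric fruit: its ripening after harvest is driven by a burst of ethylene, and the flesh softens, loses green colour, gains aroma and finally breaks down as large sets of genes are switched on and off. Storage temperature is a main lever on this programme, and heat is known to slow or disturb ripening in many climacteric fruits. The deposited tables hold identifiers without names or descriptions, and 0 of the 26873 identifiers matched the RefSeq gene table used here. Functions, sequences and gene families are therefore not given, 21 lists of gene families by product description matched no identifier, and the flesh could not be checked by marker genes of its own or of skin, vascular or green tissue. In bulk tissue, fewer cells of a type and less RNA per cell cannot be told apart.

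Summed over all rows, the 12 columns held 651850 to 882184 FPKM, and read depth is unknown. All 91 genes were among the 15420 identifiers with at least 1 FPKM in at least 2 columns after rescaling, but the threshold itself demands at least 1 FPKM at 25 °C on each of the 5 days, so that this was bound to be so. The 106 genes below the threshold were 0.687% of the 15420. As deposited, the median of the 15420 genes was 0.19 higher at 35 °C on day 2 on the log2(FPKM + 1) scale, which rescaling reduced to 0.03. On the other days it lay between -0.01 and 0.07. The same threshold in the other direction was met by 126 genes. The criterion for leaving genes out was applied to them unchanged and not mirrored, so the 126 cannot be set directly beside the 91.

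Some of the 91 identifiers may not be separate measurements. There were 5 groups of identifiers with the same value in every column, holding 11 identifiers, so that the 91 genes rest on 85 distinct sets of values. How these identical values came about was not tested, and the levels of these 11 are uncertain.

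The median gap over the genes was small on day 1 and wide from day 2 on. On day 1 the median difference over the 91 genes was -0.19 on the log2(FPKM + 1) scale, with quartiles at -0.42 and 0.10. On days 2, 3, 5, 6 and 7 it was -1.87, -2.10, -1.91, -2.07 and -2.04, while the median of all 15420 genes never left the range from -0.01 to 0.19. These medians from day 2 onward, and the counts that follow, come from the values that chose the genes, and identifiers with shared values are counted each. Of all 15420 genes, 9.18%, 7.54%, 6.95%, 5.17% and 4.6% were at -1 or lower on those days. Their shares at 4-fold and 8-fold were not computed. At least 4-fold lower levels at 35 °C, on the same scale, were listed for 39, 54, 40, 49 and 48 of the 91 genes on days 2, 3, 5, 6 and 7. At least 8-fold lower levels were listed for 18, 17, 11, 11 and 14 genes on those days. Days 2, 3, 5, 6 and 7 held the largest difference of 20, 31, 11, 13 and 16 genes. No day thus held the widest gap for most of the genes.

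**Figure D1:**
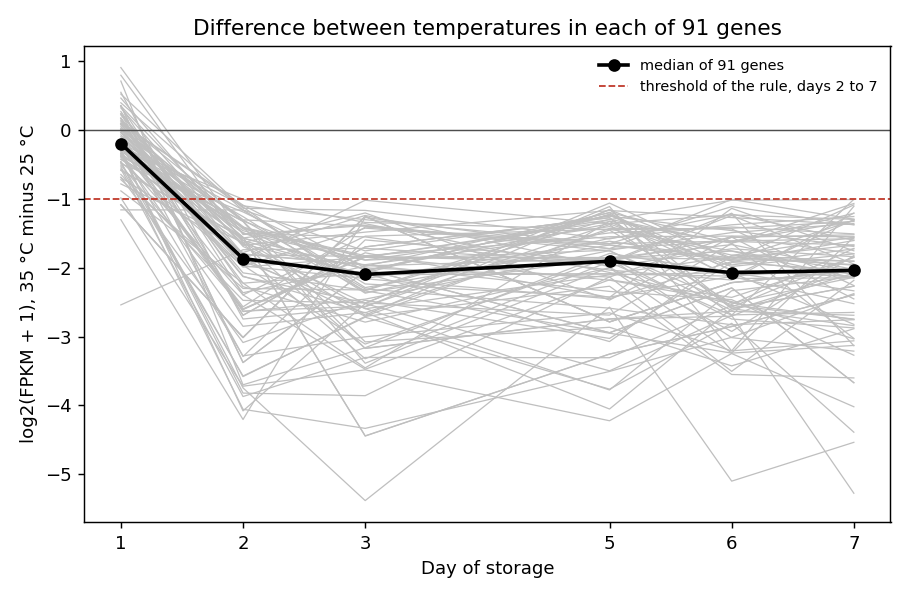
Difference between the temperatures, as log2(FPKM + 1) at 35 °C minus that at 25 °C, for each of the 91 genes (grey lines) and their median (black points) on each sampled day; the dashed line is the threshold that chose the genes on days 2 to 7. The median lies at -0.19 on day 1 and between -2.10 and -1.87 from day 2 to day 7.

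The temperatures mostly did not overlap even when days were disregarded. In 86 of the 91 genes the highest of the 5 values at 35 °C from day 2 to day 7 lay below the lowest of the 5 values at 25 °C. Over all 15420 genes this held for 5.64%, a share beside which the 86 cannot be read as a finding, because the threshold favours it. The 5 exceptions were Prupe.1G128200, Prupe.1G344800 and the identifiers Prupe.3G143900, Prupe.3G144000 and Prupe.3G144100, which share 1 set of values. In Prupe.1G344800 the overlap was slight, with a highest value of 34.2 FPKM on day 6 at 35 °C and a lowest value of 33.4 FPKM on day 2 at 25 °C.

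As a group, the 91 genes took 1.77% of all FPKM at 35 °C on day 1 and then 0.391%, 0.326%, 0.451%, 0.274% and 0.382% on days 2, 3, 5, 6 and 7. At 25 °C they took 2.08% on day 1 and 2.33%, 1.69%, 1.58%, 1.64% and 1.63% on the later days. Identifiers with shared values were counted each in these sums. One gene, Prupe.7G076500, carried a large part of them. Without it the share was 1.06% on day 1 and from 0.234% to 0.321% later at 35 °C, and 1.25% on day 1 and from 1.14% to 1.47% later at 25 °C. The genes averaged between 0.0556 and 541 FPKM over days 2 to 7 at 35 °C, with a median of 7.37, and between 2.11 and 4369.6 FPKM at 25 °C, with a median of 40.4. The median of all 15420 genes at 25 °C was 9.07 FPKM. A gene's mean at 35 °C was between 1.40% and 39.3% of its mean at 25 °C, with a median of 18.4%.

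By their means at 25 °C, the side that the rule required to be higher, more of these genes were moderately to highly abundant than of all genes. Means of 50 to 500 FPKM at 25 °C were found in 36 of the 91 genes, or 39.6%, and in 14.2% of all 15420 genes. Means under 5 FPKM were found in 7 of the 91 genes, or 7.69%, and in 36.1% of all genes. The added 1 in log2(FPKM + 1) keeps weak genes from reaching the threshold, so the scarcity of low transcripts follows in part from the rule. Because the rule also used the values averaged here, neither share is read as a result about the genes. The 126 genes of the other direction had a median of 25.0 FPKM at 35 °C on those days, with 120 at 5 FPKM or more. The median log2 difference was -1.92 in the 7 genes under 5 FPKM, -2.10 in the 45 genes of 5 to 50 FPKM, -2.07 in the 36 genes of 50 to 500 FPKM and -2.40 in the 3 genes over 500 FPKM.

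Day 1 entered the choice of the genes only through the 15 genes left out, and at that time most of the 91 genes differed little between the temperatures. Of the 91 genes, 68 differed by no more than 0.5 in either direction on day 1. The share of all 15420 genes within 0.5 was not computed, so closeness is not read as a trait of the 91. On day 1, 59 of the 91 were lower at 35 °C and 32 higher. The 59 were 64.8% of the genes, against 44.1% of all 15420. A difference of -1 or lower was already present in 6 of the 91 genes, or 6.59%, where 3.07% of all 15420 genes had one. These 6 rest on 4 sets of values, 1 value per group allows no test, and the count was 3 with quantile normalization and 10 with a pseudocount of 0.1. No gene of the 91 was higher at 35 °C by 1 or more, but the leaving out of genes bears on this. Prupe.1G127200 and Prupe.3G000800, among the 15 left out, had day 1 differences of 1.74 and 1.55. No such genes were left out of the 15420, so these day 1 counts and shares are not read as a result about the genes.

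The widest gap on day 1 was that of Prupe.3G266000, with 14.3 FPKM in fruit at 35 °C against 87.9 FPKM in fruit at 25 °C (log2 difference -2.54). Its later values were 9.02, 10.2, 7.63, 3.84 and 6.15 FPKM at 35 °C, against 32.4, 36.0, 31.7, 30.2 and 13.4 FPKM at 25 °C. The log2 difference of this gene was thus present at the first sampling, largest in size on day 6, at -2.69, and smallest on day 7, at -1.01. Prupe.1G128200 also differed on day 1, with 348 FPKM in fruit at 35 °C against 860.0 FPKM in fruit at 25 °C (log2 difference -1.30). In Prupe.1G344800 the day 1 values were 11.5 FPKM in fruit at 35 °C and 26.8 FPKM in fruit at 25 °C, which is a difference of -1.16. The opposite order on day 1 was widest in Prupe.1G335200, with 88.2 FPKM at 35 °C and 46.5 FPKM at 25 °C. On day 2 its level was 6.15 FPKM under 35 °C against 19.5 FPKM under 25 °C, and it stayed lower at 35 °C on each later day. Prupe.1G357100 likewise had 192 FPKM at 35 °C and 109.9 FPKM at 25 °C on day 1, and then between 10.3 and 31.1 FPKM at 35 °C, against 66.4 to 83.5 FPKM at 25 °C.

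Against their own day 1 value, the genes came to be lower at 35 °C in different ways. The mean of log2(FPKM + 1) over days 2 to 7 was set against day 1 at each temperature and called below day 1 at -1 or lower, above day 1 at 1 or higher, and near day 1 in between. In fruit at 35 °C, 52 of the 91 genes were below day 1, 36 near it and 3 above it. At 25 °C, 11 were below day 1, 45 near it and 35 above it. Over all 15420 genes, 10.7% were below day 1 at 35 °C, while at 25 °C 9.32% were below and 3.05% above day 1. The rule used the same values on days 2 to 7, so that shares above these backgrounds are not a result about the genes. The largest set, of 38 genes, was below day 1 at 35 °C and near day 1 at 25 °C. The second, of 28 genes, was near day 1 at 35 °C and above day 1 at 25 °C. A further 10 genes were below day 1 at both temperatures, 7 near it at both, 4 below it at 35 °C and above it at 25 °C, 3 above it at both, and 1 near it at 35 °C and below it at 25 °C.

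**Figure D2:**
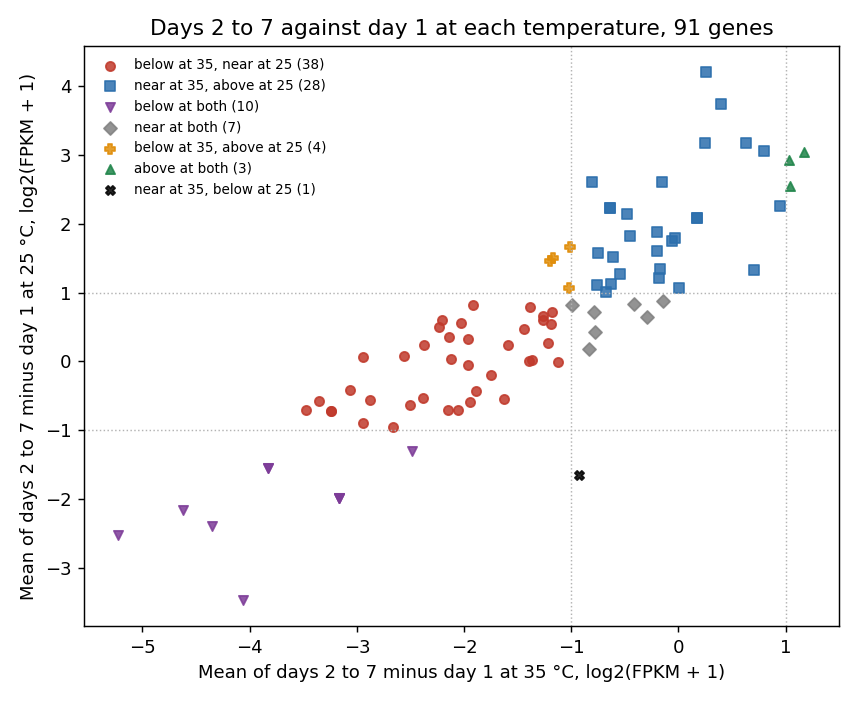
Mean of log2(FPKM + 1) over days 2 to 7 minus the day 1 value, at 35 °C (horizontal) and at 25 °C (vertical), 1 point per gene, with dotted lines at -1 and 1 and the number of genes of each class in the legend. Most points lie in the 38 genes below day 1 at 35 °C and near day 1 at 25 °C, or in the 28 genes near day 1 at 35 °C and above day 1 at 25 °C.

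**Figure D3:**
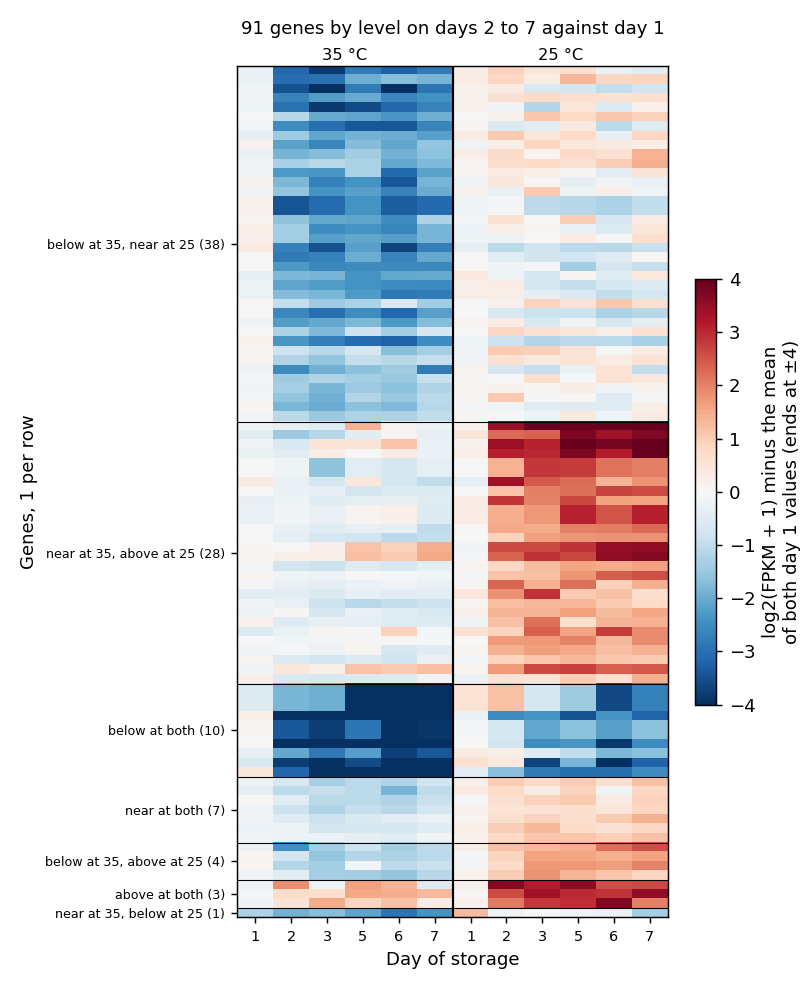
log2(FPKM + 1) of the 91 genes minus the mean of their 2 day 1 values, with 1 gene per row and 1 column per temperature and day; the colour scale ends at -4 and 4, and rows are grouped by the classes of the plot of later days against day 1. The 38 genes at the top are blue from day 2 on at 35 °C and pale at 25 °C, and the 28 genes under them are pale at 35 °C and red at 25 °C.

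In the set of 38 genes, transcripts present on day 1 were listed about 4-fold lower from day 2 on at 35 °C and near their first level at 25 °C. Their median difference from day 1 at 35 °C was -1.92, -2.10, -1.95, -2.37 and -1.97 on days 2, 3, 5, 6 and 7, on the log2(FPKM + 1) scale. At 25 °C the medians on those days were 0.14, -0.06, 0.01, -0.43 and 0.04. Every later value at 35 °C was below the day 1 value of the same temperature in all 38. On day 1 the median gene of this set had 52.2 FPKM under 35 °C against 58.3 FPKM under 25 °C.

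The most abundant of all 91 genes belonged here. Prupe.7G076500 had 5351 FPKM on day 1 at 35 °C and then 536, 271, 846, 265 and 786 FPKM on days 2, 3, 5, 6 and 7, against 6759 FPKM on day 1 at 25 °C and 7589, 3948, 3713, 3025 and 3573 FPKM later. Its highest later value at 35 °C was lower than its lowest at 25 °C, and the mean log2 difference over the 5 days was -3.10 ± 0.87 (SD over 5 days, which is no replicate error). Prupe.3G284000, next but one in abundance at 25 °C, was level on day 1, with 1564 FPKM at 35 °C and 1597 FPKM at 25 °C. It was then listed at 262, 196, 283, 177 and 348 FPKM at 35 °C, against 1031, 875, 868, 655 and 739 FPKM at 25 °C. Both temperatures were below day 1 in this gene, and 35 °C by far more.

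Prupe.7G264900 was at 199.7 FPKM on day 1 at 35 °C and at 25.6, 15.5, 32.1, 23.8 and 33.0 FPKM later, against 275 FPKM on day 1 at 25 °C and 441, 332, 375, 199 and 176 FPKM later. The mean log2 difference of this gene was -3.46 ± 0.79 (SD over 5 days), the widest of the 38. The gap was narrower on days 6 and 7, when the level at 25 °C was lower, than on days 2 and 3. Prupe.1G491300 held the steadiest gap of the 10 genes with the largest differences. Its values were 141 FPKM on day 1 and 23.9, 32.7, 38.0, 25.2 and 28.5 FPKM later at 35 °C, against 175 FPKM on day 1 and 241, 269, 245, 241 and 245 FPKM later at 25 °C. The difference stayed between -3.28 and -2.66 on the log2 scale.

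Prupe.6G056100 and Prupe.7G113100 completed the genes of this set among the 10 largest differences. At 35 °C the first had 72.6 FPKM on day 1 and between 9.94 and 26.3 FPKM later, against 108 FPKM and between 109.7 and 225 FPKM at 25 °C. The second had 40.8 FPKM on day 1 at 35 °C and between 2.32 and 6.49 FPKM later, against 52.5 FPKM on day 1 at 25 °C and between 19.8 and 65.5 FPKM later. Neither gene had a later value at 35 °C inside its range at 25 °C. The identifiers Prupe.8G121700 and Prupe.8G121900, with 1 shared set of values, had 141 FPKM on day 1 at 35 °C and 10.5 to 23.1 FPKM later, against 109.9 FPKM and 51.7 to 119 FPKM at 25 °C.

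In the set of 28 genes later levels were higher than on day 1 at 25 °C and stayed near day 1 at 35 °C. Most of these transcripts were scarce on day 1, with a range from 0.0967 to 90.5 FPKM in fruit at 35 °C and from 0.105 to 92.8 FPKM in fruit at 25 °C. The median gene had 1.11 FPKM under 35 °C against 1.77 FPKM under 25 °C on day 1, and a later mean of 1.26 FPKM under 35 °C against 14.6 FPKM under 25 °C. At 35 °C the median difference from day 1 was -0.16, -0.31, 0.00, -0.13 and -0.26 on days 2, 3, 5, 6 and 7, on the log2(FPKM + 1) scale. At 25 °C it was 1.38, 1.78, 2.17, 2.08 and 1.98 on those days, and every later value was above the day 1 value in all 28 genes. The gap in these genes lay on the side of 25 °C, although in 12 of the 28 every later value at 35 °C was also below that of day 1.

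The widest mean difference of all 91 genes was found in this set. Prupe.1G007300 was listed at 0.762 FPKM on day 1 at 35 °C and at 0.596, 0.371, 4.16, 1.11 and 0.7501 FPKM later, against 1.22 FPKM on day 1 at 25 °C and 20.4, 56.3, 29.7, 71.5 and 39.6 FPKM later. Its mean difference was -4.27 ± 1.14 on the log2(FPKM + 1) scale (SD over 5 days). Prupe.1G472300 followed with -3.74 ± 0.39. It had 8.09 FPKM on day 1 at 35 °C and 3.65, 4.86, 8.40, 12.9 and 9.19 FPKM later, against 17.0 FPKM on day 1 at 25 °C and 60.4, 64.5, 175, 131 and 164 FPKM later. A difference of -0.99 was already present on day 1 in this gene.

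Prupe.3G027700 and Prupe.3G027900, which share 1 set of values, were the most abundant of the 28. At 35 °C they had 90.5 FPKM on day 1 and 82.1, 29.3, 66.7, 56.8 and 69.6 FPKM later, against 92.8 FPKM on day 1 and 244, 658, 645, 417 and 370.3 FPKM later at 25 °C. The temperatures were level on day 1 and most apart on day 3, with a log2 difference of -4.44. Prupe.7G005800 was higher at 35 °C on day 1, with 3.84 FPKM there and 1.95 FPKM in fruit at 25 °C. On day 2 it had 2.07 FPKM under 35 °C against 39.0 FPKM under 25 °C, the highest value it reached.

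**Figure D4:**
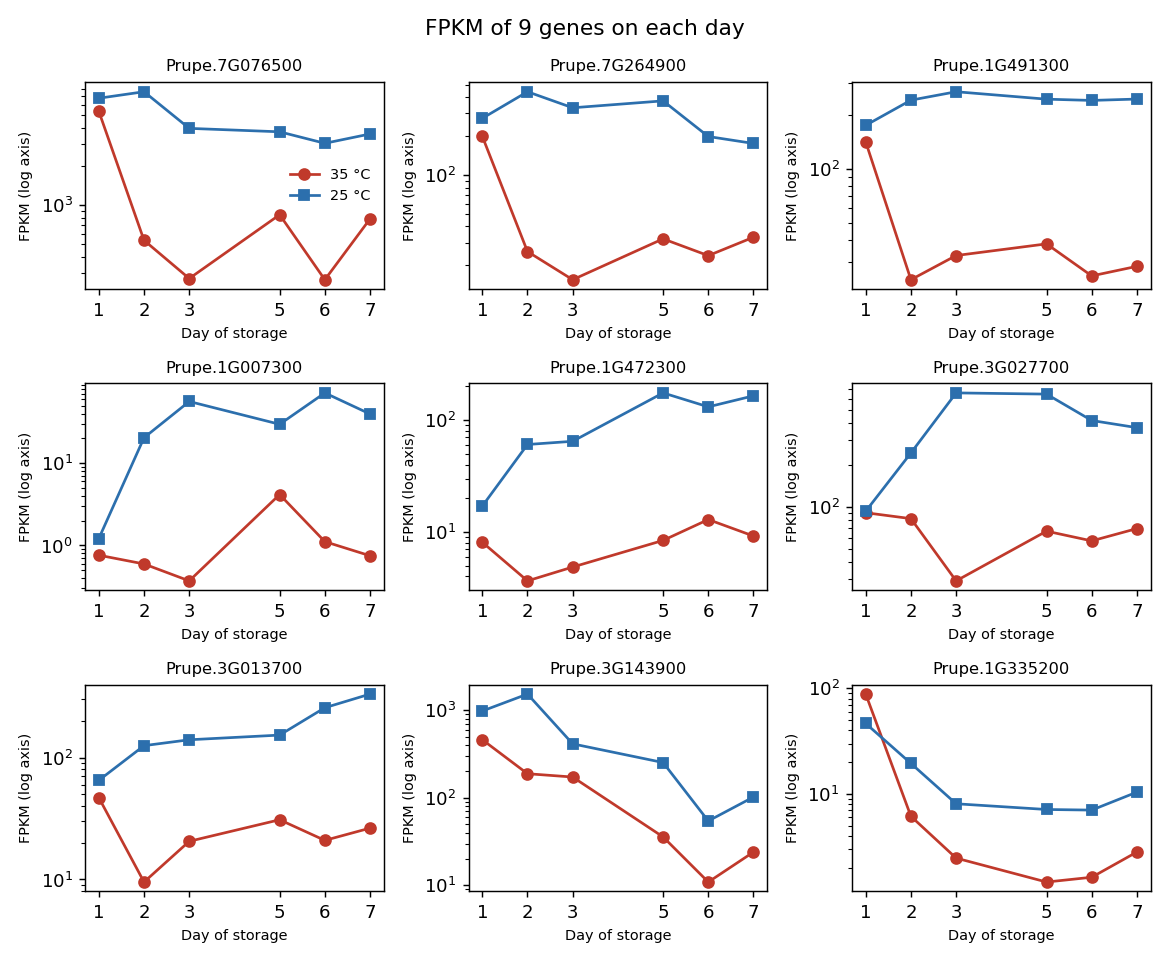
FPKM (log axis, a separate range in each panel) of 9 genes at 35 °C (red circles) and 25 °C (blue squares) on each sampled day, 1 deposited value per point. The top row shows genes classed as below day 1 at 35 °C and near it at 25 °C. Among them, Prupe.7G076500 had 536 FPKM at 35 °C and 7589 FPKM at 25 °C on day 2. Its mean change from day 1 at 25 °C was -0.71 on the log2(FPKM + 1) scale, short of the class limit of -1. The middle row shows genes classed as near day 1 at 35 °C and above it at 25 °C. The bottom row shows a gene below day 1 at 35 °C and above it at 25 °C and 2 genes below day 1 at both temperatures.

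Neighbouring identifiers were present among these genes, and how often they occur among all genes was not computed. There were 9 groups of genes whose identifier numbers lie next to or near each other, at most 500 apart, holding 19 identifiers. In 5 of the groups the identifiers share 1 set of values and may be 1 measurement. The other 4 groups have values of their own and lie in the same course or in adjoining ones. Prupe.4G166100 had 0.390 FPKM on day 1 at 35 °C, was listed at 0 on day 2 and had between 0.253 and 2.37 FPKM later, against 0.680 FPKM on day 1 at 25 °C and 15.9, 11.8, 23.5, 20.8 and 47.6 FPKM later. Its neighbour Prupe.4G166200 was also listed at 0 on day 2 at 35 °C and reached at most 0.740 FPKM there, against 10.9, 10.03, 17.4, 11.2 and 23.2 FPKM at 25 °C on days 2 to 7. Both had their lowest 35 °C value on day 2 and their highest 25 °C value on day 7.

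Prupe.2G301000 and Prupe.2G301100 were the second pair. At 35 °C they were at 1.32 and 0.824 FPKM on day 2 and at 4.59 and 4.01 FPKM on day 7, against 9.12 and 10.3 FPKM on day 2 and 23.6 and 20.1 FPKM on day 7 at 25 °C. At both temperatures their levels were higher on day 7 than on day 2. Prupe.1G331900 and Prupe.1G332000 averaged 8.97 and 25.98 FPKM over days 2 to 7 at 35 °C, against 58.7 and 139 FPKM at 25 °C. On day 1 both were level between temperatures, with log2 differences of 0.08 and -0.09. Prupe.1G383400 and Prupe.1G383700 were among the weakest of the 91, with no later value at 35 °C above 0.158 FPKM and values from 1.34 to 5.63 FPKM at 25 °C. Fold changes of so low values are understated on the log2(FPKM + 1) scale. The remaining identical group of this course, Prupe.1G359000 and Prupe.1G359100, averaged 1.12 FPKM under 35 °C against 12.05 FPKM under 25 °C.

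In 10 genes, on 7 sets of values, the level was far below day 1 at both temperatures, and lower at 35 °C from day 2 on, as the rule required. Their median change from day 1 was -3.32 by day 2 at 35 °C and -0.44 at 25 °C, and by day 7 it was -4.12 at 35 °C and -2.72 at 25 °C. On day 2 all 10 were at least 1 below day 1 at 35 °C, and 2 of the 10 were so at 25 °C. From day 5 on all 10 were so at both temperatures. Since these changes set the class and the rule set the order of the temperatures, the counts and medians are a description only. Identifiers with shared values were counted each in them. Prupe.3G143900, Prupe.3G144000 and Prupe.3G144100, with 1 set of values, had 461 FPKM on day 1 at 35 °C and 189, 173, 35.8, 10.9 and 24.1 FPKM later, against 980.2 FPKM on day 1 at 25 °C and 1531, 413, 253.01, 54.4 and 102 FPKM later. The value at 25 °C on day 6 was lower than those at 35 °C on days 2 and 3, so that the temperatures overlap when days are disregarded.

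Prupe.1G128200 had 38.1, 16.5, 44.9, 4.37 and 22.7 FPKM on days 2 to 7 at 35 °C, against 720.1, 41.2, 151, 9.80 and 57.1 FPKM at 25 °C. Its difference was -4.21 on day 2 and between -1.72 and -1.01 afterwards, so that this gene was lastingly lower by a small margin only. Prupe.3G015900 and Prupe.3G016000, again with shared values, stood at 134 FPKM on day 1 at 35 °C and between 3.75 and 15.8 FPKM later, against 119 FPKM and between 27.6 and 77.3 FPKM at 25 °C. Prupe.1G335200, described above for day 1, had the most even gap, between -1.72 and -1.39 on days 2 to 7.

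In 4 genes the level was below day 1 at 35 °C and above it at 25 °C, without meeting the day 2 criterion for which genes were left out. Prupe.3G013700 had 46.9 FPKM on day 1 at 35 °C and 9.53, 20.6, 30.9, 20.9 and 26.4 FPKM later, against 65.0 FPKM on day 1 at 25 °C and 125, 139.8, 153, 256.03 and 331 FPKM later. The values at 25 °C were in ascending order of days and those at 35 °C were not. Prupe.4G008900, second in abundance at 25 °C, had 362 FPKM on day 1 at 35 °C and 297, 156, 154, 133 and 185 FPKM later, against 448 FPKM on day 1 at 25 °C and 792, 1411, 1041, 874 and 734 FPKM later. The gap of this gene was narrowest on day 2, at -1.41, and widest on day 3, at -3.17. In the 3 genes above day 1 at both temperatures later levels exceeded day 1 by less at 35 °C than at 25 °C. Prupe.8G125800, singled out after its values were seen, had 19.7 FPKM on day 1 at 35 °C and averaged 47.3 FPKM later, against 20.8 FPKM on day 1 at 25 °C and 183 FPKM later. The 7 genes near day 1 at both temperatures had a median gene at 19.2 FPKM on day 1 at 35 °C and 10.9 FPKM later, against 26.05 FPKM on day 1 at 25 °C and 43.8 FPKM later.

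Whether levels moved onward within days 2 to 7 was tested with limma as a linear slope on day at each temperature. The 5 days served as units, so its p-values measure the scatter of days around a line, not the spread between fruit. The rule used the same values, through their difference between temperatures and not through their order over days within a temperature. At 35 °C, 0 of the 91 genes were called at a limma Benjamini-Hochberg adjusted p under 0.05, against 0.00649% of all 15420 genes. Before adjustment, limma gave a p under 0.05 for 12 of the 91 genes, or 13.2%, and for 11.5% of all 15420. The slopes at 35 °C ran from -0.77 to 0.30 per day on the log2 scale with a median of 0.01, and 46 of the 91 were above 0. A p above the threshold does not show that a course was flat.

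At 25 °C, 1 of the 91 genes was called, against 0.739% of all genes (with 91 genes, a single call is near that background). Before adjustment, 27 of the 91, or 29.7%, had a limma p under 0.05, 13 with an upward and 14 with a downward slope, against 19.2% of all genes. Identifiers with shared values were counted each at both temperatures. At 25 °C, Prupe.3G143900, Prupe.3G144000 and Prupe.3G144100 were among the 14, and Prupe.1G359000 and Prupe.1G359100 among the 13. The fit shares 1 spread between temperatures and the rule favours genes well expressed at 25 °C. The share is therefore not read as a result about the genes. The called gene was Prupe.7G191400, with 0.213 FPKM on day 1 at 35 °C and at most 0.158 FPKM later, against 0.105 FPKM on day 1 at 25 °C and 1.53, 1.63, 2.91, 5.22 and 5.90 FPKM later. Its slope was 0.01 ± 0.05 per day at 35 °C and 0.31 ± 0.05 per day at 25 °C (SE, limma adjusted p = 0.953 and 0.0302). The call at 25 °C was lost without any single day of the 5 and with a pseudocount of 0.1, with limma adjusted p up to 0.199, although the slope remained positive.

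The course of the gap over days 2 to 7, as the slope at 35 °C minus that at 25 °C, is made of the differences that chose the genes and is given as a description. The median was 0.02 per day on the log2 scale, with a range from -0.33 to 0.47, and 51 of the 91 were above 0, which means a narrowing gap. For Prupe.7G191400 the difference of slopes was -0.30 per day. In the limma fit 0 of the 91 genes were called for this difference, against 0.0% of all 15420, from which nothing is read about the genes, since each daily difference had to be -1 or lower.

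Of the 91 identifiers, 16 had more than 1 row in the tables, with 34 rows in all, as happens when transcripts of a gene are listed apart. All 34 rows had a mean difference below 0 over days 2 to 7, from -3.72 to -0.72, and 25 of them met the threshold on every day by themselves. Every row did so in 8 of the 16 identifiers, and at least 1 row did so in 15. Prupe.4G149900 met the threshold only through the sum of its rows. The largest pair of rows, in Prupe.7G264900, averaged 22.3 and 3.70 FPKM at 35 °C, against 265 and 39.9 FPKM at 25 °C. Both rows were thus lower at 35 °C, with mean log2 differences of -3.47 and -3.01.

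The edge of the group is arbitrary. Just inside the threshold, with means of at least 5 FPKM at 25 °C, the smallest daily differences were -1.004 in Prupe.8G126800 on day 2, -1.006 in Prupe.3G266000 on day 7 and -1.007 in Prupe.1G128200 on day 6. Just outside were Prupe.5G179800 with -0.996 and Prupe.8G098000 with -0.986, on days 6 and 2, and Prupe.6G191200 with -0.976 on day 2. Prupe.8G126800 had 24.6, 24.2, 22.4, 20.2 and 25.6 FPKM on days 2 to 7 at 35 °C, against 50.3, 62.8, 62.7, 56.1 and 65.9 FPKM at 25 °C. The difference of this gene lay at the threshold on day 2 and between -1.45 and -1.33 on the later days. With a threshold of -1.5 the group had 31 genes. When a day was not required it had 140 genes without day 2, 106 without day 3, 151 without day 5, 104 without day 6 and 138 without day 7.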

How the data were processed

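Flesh RNA was depleted of ribosomal RNA and sequenced from directional libraries on an Illumina instrument, per the labels' protocols. The authors deposited FPKM in 2 tables, per the file headers, with 1 column for each temperature and day, standing for the 2 libraries of a group. Not given in the sources used here were how these were combined, the annotation, the genome build and any scaling across columns. The submitters' processing notes name, without roles, Cufflinks 2.1.1, TopHat2 2.0.10, Bowtie2 2.1.0, SAMtools 0.1.18 and FastQC 0.10.1. Both tables list 29300 rows for 26873 identifiers, and rows of one identifier were summed. Printed levels and differences use FPKM as deposited and a pseudocount of 1. Slopes were fitted across all 15420 genes in R 4.3.3 by limma 3.58.1 (eBayes with trend) on FPKM rescaled by median-of-ratios factors between 0.922 and 1.06, with an intercept and a slope for each temperature, and p-values were adjusted by Benjamini-Hochberg. The fit was also run on simulated data with known slopes, in which genes were not chosen by a gap between temperatures. Its outcome is not given here, and nothing is read from it. Read depth is unknown, so no counting interval is given, and an exact 0 may be a failed estimate. The planned product lists and promoter motifs were not used here, since 0 identifiers matched. The genes, product lists and rules were chosen with earlier results of these data known. Named are the 10 largest mean differences (mean of at least 5 FPKM at 25 °C), the 8 most abundant genes, 5 low and 3 high on day 1, slope calls, neighbours, shared values and genes at the threshold. Baseline, left-out-day and counted-once alternatives for courses and the counted-once one for day 1 were chosen after seeing the data.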

Additional observations from a re-analysis of the deposited data

How the results depend on the processing

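No paired analysis was possible because each column pools both libraries of a group, and for the same reason no replicate could be left out. The 91 genes became 31 with a threshold of -1.5, and 140, 151 and 138 when day 2, 5 or 7 was not required. The other settings gave 84 to 134 genes, of which 84 were among the 91 with a pseudocount of 0.1 (134 genes), 86 after rescaling (95 genes) and 83 with quantile normalization (97 genes). The 6 genes at least 1 lower at 35 °C on day 1 became 10 with a pseudocount of 0.1 and 3 with quantile normalization. The 52 genes below day 1 at 35 °C ranged from 48 to 61, and the 35 above day 1 at 25 °C from 32 to 35. Slopes from day 1 to 7 in place of day 2 to 7 called 3 of the 91 genes at 35 °C, where 39 of all 15420 were called, and 9 of the 91 at 25 °C, where 286 of all were called. At 35 °C all 3 were downward, and at 25 °C 6 were upward and 3 downward. Such slopes take in the step from day 1 to the values that chose the genes, and identifiers with shared values were counted each. These counts are therefore not read as a result about the genes. At 25 °C the 1 call became 0 with a pseudocount of 0.1 and without each of days 2, 3, 5, 6 and 7. When means of 5 FPKM or more were required, 79 of the 91 genes were tested and 0 called. The called gene, Prupe.7G191400, was not among those tested. Of 333 recomputed mean differences of 37 named genes, 7 moved by more than their SD over days, each with a pseudocount of 0.1 (the rule itself largely fixes their sign). The causes were not tested.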
